A study of Mus musculus with 6 samples.

Results

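The genes described here encode the hemidesmosome and the neighbouring adhesion receptors of basal epithelial cells: *Lama3*, *Lamb3*, *Itga6*, *Itgb4*, *Col17a1*, *Dst*, *Plec*, *Cd151*, *Itga3* and *Itgb1*. They were chosen by name, with earlier results of these data known. They are 10 of the 19938 genes that could be compared, and all 10 were measured, each by a single probe set naming only that gene. Expression was measured on 6 microarrays of esophageal epithelium from mice aged 3 months, 1 animal per array. The 3 arrays labelled mutant came from ED-L2-Cre/Klf4loxp/loxp animals, in which a squamous epithelial promoter drives Cre and both copies of the transcription factor gene *Klf4* are floxed. The 3 arrays labelled control came from sex-matched littermates with the same floxed alleles and no Cre. Replicate 1 of each group was a male and replicates 2 and 3 were females, and the strain background was mixed. Values are the log2 expression values as deposited, and a difference is the mean of the arrays labelled mutant minus the mean of those labelled control.

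Hemidesmosomes rivet the basal cells of a stratified epithelium to the basement membrane. Integrin α6β4, the product of *Itga6* and *Itgb4*, and the transmembrane collagen XVII bind laminin-332 outside the cell, and the plakins encoded by *Dst* and *Plec* tie them to keratin filaments inside. *Lama3* and *Lamb3* encode chains of laminin-332. Integrin α3β1, the product of *Itga3* and *Itgb1*, binds the same laminin and connects to actin, and the tetraspanin CD151 associates with both laminin-binding integrins. In esophagus, as in skin, these structures lie in the basal layer, while *Klf4* is known chiefly as a factor of the differentiating layers above it.

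The signal of *Klf4* was not lower on arrays labelled mutant. It read 9.75, 10.15 and 10.06 on arrays labelled control and 10.28, 10.50 and 10.28 on those labelled mutant, a difference of 0.37 ± 0.13 (SE; limma adjusted p = 0.314). Where the probes lie and which part of the gene Cre deletes are not given in the sources used, so every direction given here rests on the labels. The label of epithelium was checked by keratins of the basal layer: *Krt5*, *Krt14* and *Krt15* had control means of 12.53, 11.27 and 12.18, where the array medians lay between 5.01 and 5.13. The preparation also held other cells, since the fibroblast gene *Col1a1* and the smooth muscle gene *Acta2* read up to 10.22 and 10.57 on arrays labelled control. The skeletal muscle gene *Acta1* read 8.4, 13.1 and 12.4 on arrays labelled control and 11.8, 11.6 and 8.6 on those labelled mutant. The muscle gene *Des* read 7.4, 10.7 and 9.8 against 8.7, 8.7 and 6.2, so muscle signal varied widely between arrays of the same group. In tissue RNA of this kind, fewer cells of a type and less RNA per cell cannot be told apart.

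All 10 genes had a lower mean on arrays labelled mutant, or 9 with each array centred on its median, where *Itga6* stood at 0.016. None passed an adjusted p of 0.05 in limma, a threshold that 1.04% of all genes passed. Differences ran from -0.84 (*Dst*) to -0.021 (*Itga6*), with a median of -0.41, against a median of 0.022 and 44.5% of differences below 0 among all genes. At an unadjusted limma p under 0.05, 8 of the 10 were lower and 0 higher, where 6.63% of all genes were lower and 5.79% higher at that level. That count was 4 when mutant 3 was left out, and leaving out each of the other arrays gave 6 to 8. No share of all genes is given for those runs. The 3 arrays of each group did not overlap for 7 of the 10, a pattern that 8% of all genes showed in the same direction. Because the genes were chosen with earlier results of these data known, these counts describe the list and do not test it.

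**Figure D1:**
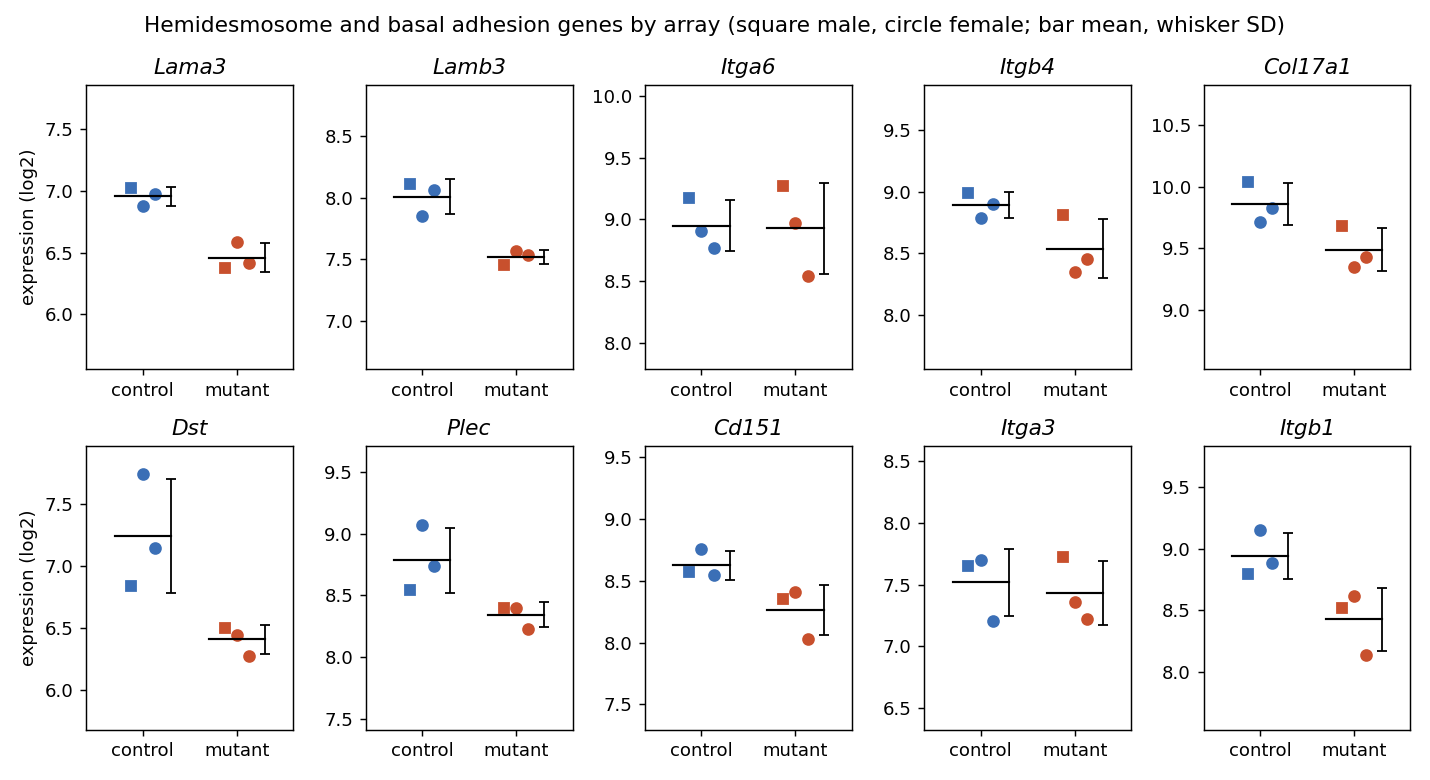
Each panel shows 1 gene on the log2 scale, with 3 arrays labelled control (blue) and 3 labelled mutant (orange), squares for males and circles for females, the mean as a bar and the SD as a whisker; all panels span the same range. The groups are separate in 7 panels and overlap for *Itga6*, *Itgb4* and *Itga3*.

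The laminin chains gave the smallest p-values. *Lama3* (probe set 10453939), which encodes the α3 chain, read 7.02, 6.87 and 6.97 on arrays labelled control and 6.37, 6.59 and 6.42 on those labelled mutant. The lowest control lay above the highest mutant, and the difference was -0.50 ± 0.10 (SE), or 70.9% of the control level with a 95% confidence interval of 60.1% to 83.5% (limma adjusted p = 0.0835). *Lamb3* (probe set 10352838), which encodes the β3 chain, read 8.11, 7.85 and 8.06 on arrays labelled control and 7.45, 7.56 and 7.53 on those labelled mutant. These groups were also separate, and the difference of -0.49 ± 0.10 corresponds to 71.1% of the control level (95% interval 60.0% to 84.2%; limma adjusted p = 0.0928). In both genes the male pair differed most by value, -0.65 and -0.66, against -0.42 and -0.41 in the females.

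The chains of the hemidesmosomal integrin gave unlike values. *Itga6* (probe set 10472820) read 9.17, 8.90 and 8.77 on arrays labelled control and 9.27, 8.97 and 8.54 on those labelled mutant. The mutant values enclosed the control values, and the difference of -0.021 ± 0.195 left an interval from -0.48 to 0.43 (limma adjusted p = 0.979). Its sign turned with median centring and in 4 other alternatives. *Itgb4* (probe set 10382713), whose long cytoplasmic tail binds plectin, read 8.99, 8.79 and 8.90 on arrays labelled control and 8.81, 8.35 and 8.45 on those labelled mutant. Here only the male mutant reached the control range, and the difference was -0.35 ± 0.14 (limma adjusted p = 0.346). *Col17a1* (probe set 10468344), encoding the collagen XVII chain, read 10.04, 9.71 and 9.83 against 9.69, 9.35 and 9.43. Its groups were separate by a narrow margin, with a difference of -0.37 ± 0.13 (limma adjusted p = 0.295).

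Of the plakins, *Dst* had the largest difference of the 10 genes and the widest spread among controls. *Dst* (probe set 10345241), which encodes dystonin, whose epithelial form is the bullous pemphigoid antigen BPAG1e, read 6.84, 7.74 and 7.15 on arrays labelled control and 6.50, 6.44 and 6.27 on those labelled mutant. The difference was -0.84 ± 0.22, or 56.0% of the control level (95% interval 39.5% to 79.3%; limma adjusted p = 0.149). Control 2 stood highest, and without it the difference was -0.59. The gene also has neuronal and muscle forms, and the single value does not separate them. *Plec* (probe set 10429802), encoding plectin, read 8.54, 9.07 and 8.74 against 8.40, 8.40 and 8.23. Control 2 was again the highest array, the groups were separate, and the difference was -0.44 ± 0.15 (limma adjusted p = 0.260).

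The tetraspanin and the β1 chain both had a lower mean on arrays labelled mutant. *Cd151* (probe set 10558948) read 8.57, 8.76 and 8.55 on arrays labelled control and 8.35, 8.41 and 8.03 on those labelled mutant, a difference of -0.36 ± 0.13 (limma adjusted p = 0.305). *Itgb1* (probe set 10576661), the common β chain of many integrins, read 8.79, 9.15 and 8.88 against 8.52, 8.62 and 8.14, a difference of -0.51 ± 0.16 (limma adjusted p = 0.216). Both had separate groups, with control 2 highest and mutant 3 lowest. *Itga3* (probe set 10390117), the α chain that pairs with β1, read 7.65, 7.70 and 7.20 against 7.72, 7.36 and 7.22. The highest array was a mutant and the lowest a control, and the difference of -0.085 ± 0.179 had an interval from -0.50 to 0.33 (limma adjusted p = 0.907).

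Across the 6 arrays the genes followed a few shapes, compared by the root mean square difference between profiles after each gene was centred on its own mean. Of the 45 pairs, *Itgb4* with *Col17a1* and *Lama3* with *Lamb3* were closest, at 0.057 each on the log2 scale. *Cd151* with *Itgb1* (0.094) and *Plec* with *Itgb1* (0.108) followed, and *Itga6* with *Itga3* stood at 0.148. The widest distance was between *Itga6* and *Dst*, 0.551. *Itgb4*, *Col17a1* and the laminin chains were highest on control 1, *Cd151*, *Itgb1*, *Plec* and *Dst* on control 2, and *Itga6* and *Itga3* on mutant 1. These shapes describe 6 arrays and were read after the values were seen.

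**Figure D2:**
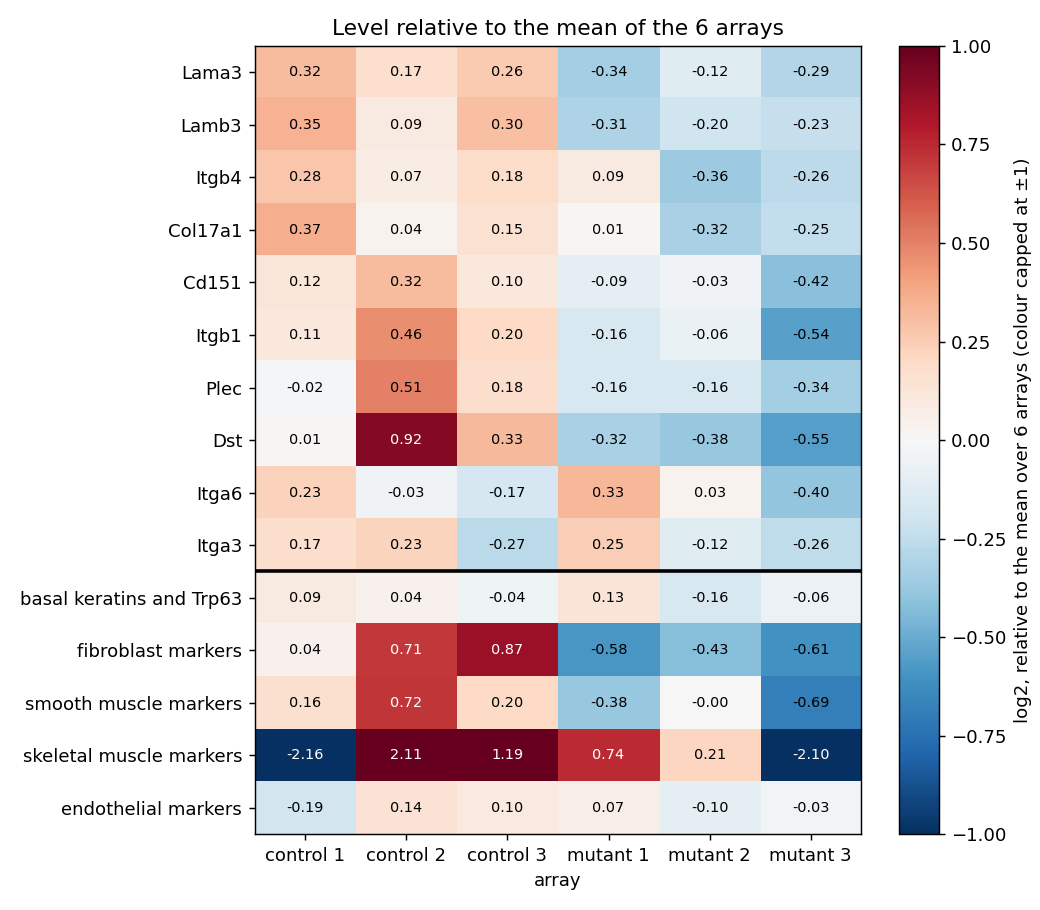
Rows are the 10 genes and, under the line, means over marker genes; columns are the arrays, and each cell gives the log2 level relative to the mean of the 6 arrays. *Dst* stands at 0.92 on control 2, where smooth and skeletal muscle markers are also highest (0.72 and 2.11), while the basal keratins and *Trp63* stay between -0.16 and 0.13.

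Markers of other cell types moved with part of these genes. Every one of the 12 fibroblast genes had a lower mean on arrays labelled mutant (median -1.14, 3 past the threshold), and 9 of 10 smooth muscle genes did (median -0.81, 0 past it). All 12 fibroblast genes had an unadjusted limma p under 0.05, and 10 had separate groups. Among all genes, 6.63% and 8% did so in that direction. Relative to the mean of the 6 arrays, the fibroblast markers averaged between 0.044 and 0.87 on arrays labelled control and between -0.61 and -0.43 on those labelled mutant. The smooth muscle markers averaged 0.16 to 0.72 and -0.69 to -0.0015. They include *Des*, whose wide range between arrays is given above, and it is also part of the fibroblast and smooth muscle score used below. The skeletal muscle markers ranged from -2.16 to 2.11 among controls and from -2.10 to 0.74 among mutants, so those groups overlapped. Endothelial markers (median -0.015) and leukocyte markers (median 0.016) each had 5 lower and 5 higher. None of the endothelial genes passed, while on the leukocyte list the macrophage gene *Cd68* rose by 1.11 ± 0.17 and the lysozyme gene *Lyz2* fell by 1.57 ± 0.27 (limma adjusted p = 0.0304 and 0.0463). The 7 measured Schwann cell and nerve markers had a median of 0.066. Markers of the suprabasal keratinocytes were lower in 8 of 10, 1 past the threshold, with a median of -0.091. They averaged 0.092 to 0.16 on arrays labelled control and -0.27 to -0.039 on those labelled mutant, so these groups were separate in the direction of the 10 genes, and their part in the differences was not tested.

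With the mean of the fibroblast and smooth muscle markers as a covariate, the 10 genes spread further apart by value. The differences of *Lama3* and *Lamb3* were -0.51 ± 0.26 and -0.68 ± 0.25, and those of *Itgb4* and *Col17a1* were -0.66 ± 0.32 and -0.79 ± 0.28 (SE). *Itga6* and *Itga3* lay between the others, at -0.15 ± 0.47 and -0.15 ± 0.43. *Dst*, *Plec*, *Cd151* and *Itgb1* turned to 0.077 ± 0.354, 0.15 ± 0.26, 0.017 ± 0.282 and 0.092 ± 0.285. None of these values passed in limma, with adjusted p-values from 0.679 (*Col17a1*) upward. The score differs between the groups itself, so the covariate widened every error, and it left 3 genes of all 19938 past the threshold. With the skeletal muscle markers as the covariate, added after seeing the data, all 10 genes stayed lower, with *Dst* at -0.72 ± 0.15 (limma adjusted p = 0.0711).

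**Figure D3:**
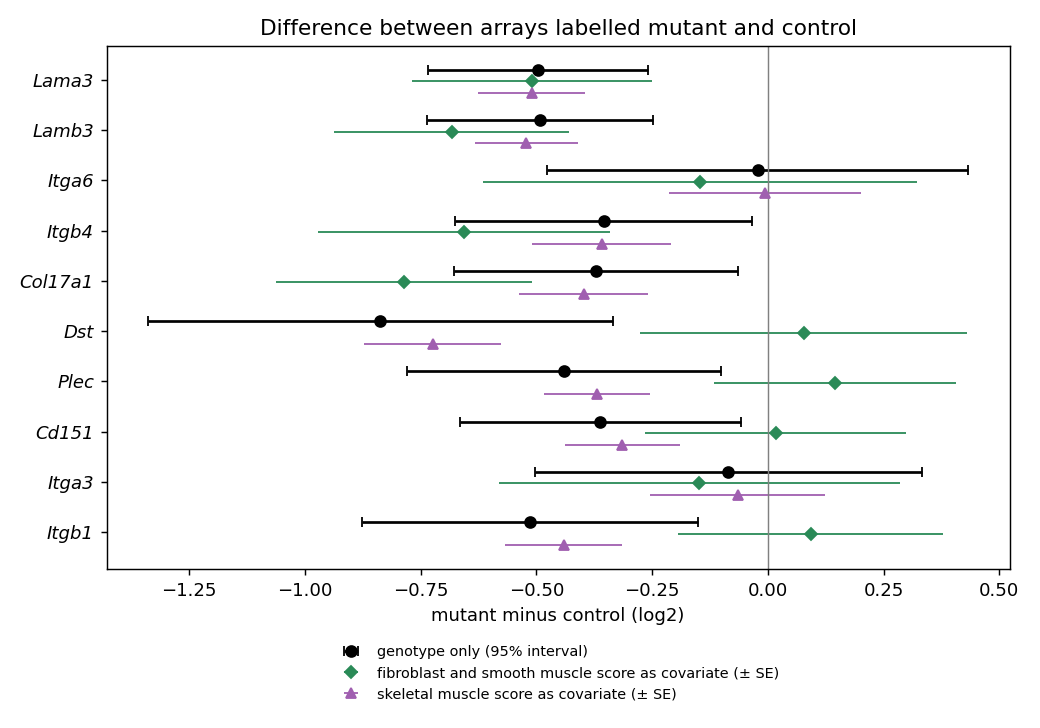
For each gene the black circle is the log2 difference, mutant minus control, with its 95% interval, the green diamond the difference with the fibroblast and smooth muscle score as a covariate (± SE), and the purple triangle that with the skeletal muscle score (± SE). With the first covariate *Dst*, *Plec*, *Cd151* and *Itgb1* lie at 0.017 to 0.15, *Itga6* and *Itga3* at -0.15 each, and *Lama3*, *Lamb3*, *Itgb4* and *Col17a1* between -0.79 and -0.51.

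Markers of the basal cells themselves went both ways. *Krt5*, *Krt14* and *Krt15*, the keratins of the basal layer, differed by -0.11 ± 0.11, 0.16 ± 0.19 and -0.21 ± 0.10, and *Trp63*, a master regulator of basal cells, by -0.080 ± 0.121 (SE; limma adjusted p between 0.482 and 0.856). On the same list, the transcription factor gene *Sox2* read 9.25 to 9.40 on arrays labelled control and 9.46 to 10.03 on those labelled mutant, and the keratin gene *Krt17* read 5.51, 5.73 and 5.84 against 6.83, 5.90 and 5.88. Both had separate groups in the opposite direction to the 10 genes, with differences of 0.51 ± 0.16 and 0.51 ± 0.25 (limma adjusted p = 0.231 and 0.476). Over all 10 basal markers 5 were lower and 5 higher, none past the threshold, with a median of 0.038. With the mean of these keratins and *Trp63* as a covariate, *Lama3* and *Lamb3* stood at -0.53 and -0.51, *Dst* at -0.83 and *Itgb1* at -0.52. *Itgb4* and *Col17a1* stood at -0.27 and -0.30.

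The genotype effect was also set against sex, a comparison with little power, since each group held 1 male and the error came from the 4 female arrays. The interaction term in limma passed for 0 of the 10 and for 0.0451% of all genes, and at an unadjusted p under 0.05 for 0 of the 10 and 5.82% of all genes, so the count of 0 is no result about these genes. *Dst* came nearest, with -1.09 in the females and -0.34 in the male pair (difference 0.75 ± 0.37, SE; limma adjusted p = 0.933).

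Other components of the basement membrane and of cell adhesion were examined by list. Of 27 measured basement membrane genes, 22 were lower and 5 higher, none passed, and the median was -0.34. At an unadjusted limma p under 0.05, 14 of the 27 were lower and 0 higher. Groups were separate with the mutant lower for 16 of the 27. Among all genes these shares were 6.63% and 8%, and 44.5% had a difference below 0. Of the 27, *Fbln1* is also counted with the fibroblast markers. *Nid1*, encoding nidogen, a linker of laminin and collagen IV, had the smallest p (-1.28 ± 0.24; limma adjusted p = 0.0693), followed by the laminin α5 gene *Lama5* (-0.56 ± 0.11; limma adjusted p = 0.0831). *Col7a1*, which encodes the anchoring fibril collagen beneath hemidesmosomes, had separate groups, at 6.65, 6.86 and 6.76 against 6.38, 6.48 and 6.64, and a difference of -0.25 ± 0.11 (limma adjusted p = 0.409). It is named here for that role, after its values were seen. Of the 16 other integrin subunits, 12 were lower, none passed, and the median was -0.20. The vitronectin receptor chain *Itgb5* (-0.66 ± 0.13) and the epithelial chain *Itgb6* (-0.70 ± 0.25) had the smallest p-values (limma adjusted p = 0.0807 and 0.290).

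On the inner side of the membrane, 19 of 24 integrin adaptor and focal adhesion genes were lower, none passed, and the median was -0.23. The actin crosslinker gene *Flna* differed by -0.48 ± 0.10 and the adaptor gene *Lims2* by -0.54 ± 0.14 (limma adjusted p = 0.0981 and 0.157). Of 8 plakins and keratin anchors, 7 were lower and 1 passed, the envoplakin gene *Evpl*. It fell by 1.03 ± 0.16 (limma adjusted p = 0.0370) and belongs to the cornified envelope rather than the hemidesmosome. *Evpl* and *Ppl* of this list are also suprabasal markers, and *Krt5*, *Krt14* and *Krt15* also basal markers, so the counts of these lists overlap. Of 14 tetraspanins other than *Cd151*, 6 were lower, the median was 0.033, and *Cd82*, known as a suppressor of metastasis, fell by 0.71 ± 0.12 (limma adjusted p = 0.0407).

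The remaining lists held receptors and matrix proteins of the basal surface. Of 11 other basal surface receptors, 8 were lower (median -0.27), and the fibrillar collagen receptor gene *Ddr2* fell by 1.16 ± 0.20 (limma adjusted p = 0.0451). Of 17 matrix ligands and proteases, 9 were lower (median -0.10), and the fibronectin gene *Fn1* and the metalloprotease inhibitor gene *Timp2* fell by 1.26 ± 0.18 and 1.09 ± 0.14 (limma adjusted p = 0.0246 and 0.0169). All 5 of these calls were lost with the fibroblast and smooth muscle score as a covariate, where *Evpl* stood at -0.995 and *Cd82* at -0.32. Over all 20 alternatives *Fn1* was lost in 7, *Timp2* in 8, *Evpl* in 9, *Ddr2* in 10 and *Cd82* in 11, none with a change of sign.

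**Figure D4:**
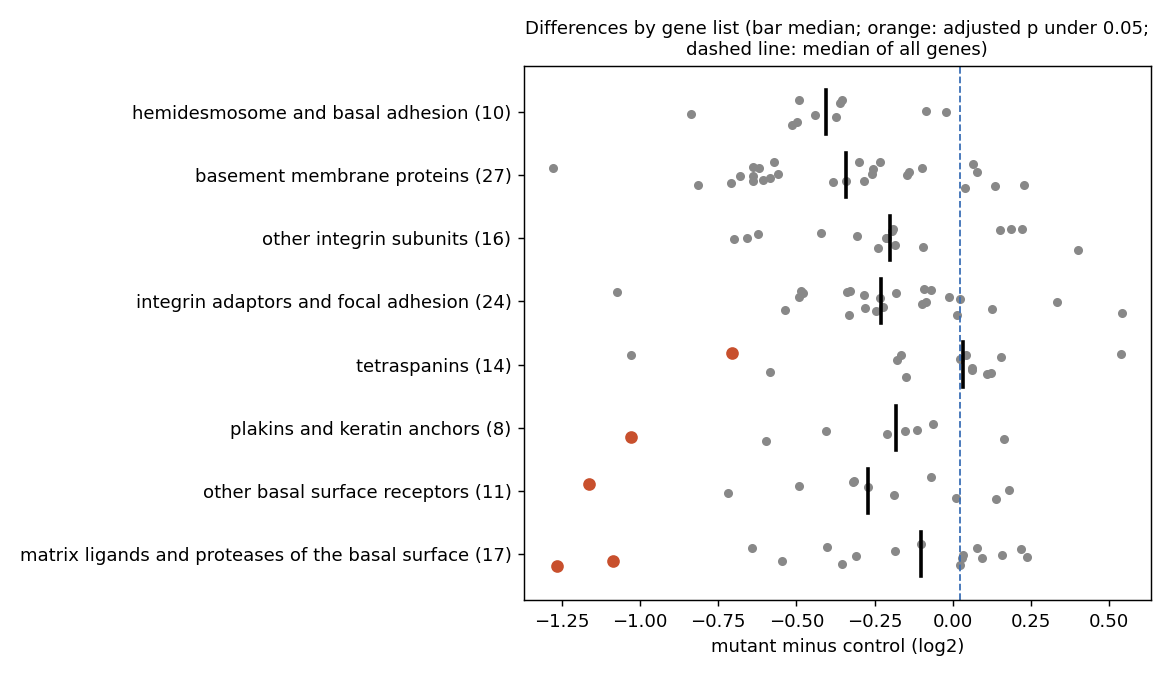
Each point is a gene, placed by its log2 difference, mutant minus control, in the list named at the left with its number of measured genes; bars are medians, orange points passed an adjusted p of 0.05, and the dashed line is the median of all genes, 0.022. The hemidesmosome and basal adhesion genes have a median of -0.41 and no orange point.

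The genes whose profile lay closest to *Lama3*, the gene with the smallest p of the 10, were *Erbin*, *Nrd1*, *Slc6a19*, *Sbsn* and *Adgra2*, at 0.047 to 0.056 over the 6 arrays. *Erbin*, which encodes a scaffold protein of the basolateral membrane, read 9.95, 9.80 and 9.86 on arrays labelled control and 9.30, 9.48 and 9.45 on those labelled mutant. *Lamb3* followed at rank 6 of 19937, the remaining 8 genes at rank 744 (*Cd151*) to 15003 (*Dst*).

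Promoter windows of the genes, from 250 bases before to 50 after an annotated start, were looked up in RefSeq sequence of build GRCm38.p6, since *Klf4* encodes a factor that binds CACCC-like elements. Windows on 1 chromosome were left out of the search of these genes but kept in the background given below. The search gave 10 windows for 6 of the 10 genes, so the other genes are not shown to lack a window. The upstream *Lamb3* window (chr1:193301744-193302043, plus strand) and the *Col17a1* window (chr19:47691993-47692292, minus strand) are shown because these genes stayed lower, by value, with the stromal covariate. Capitals mark CACCC or its reverse complement GGGTG, and each sequence runs 5′ to 3′ on the strand of its gene.
Lamb3: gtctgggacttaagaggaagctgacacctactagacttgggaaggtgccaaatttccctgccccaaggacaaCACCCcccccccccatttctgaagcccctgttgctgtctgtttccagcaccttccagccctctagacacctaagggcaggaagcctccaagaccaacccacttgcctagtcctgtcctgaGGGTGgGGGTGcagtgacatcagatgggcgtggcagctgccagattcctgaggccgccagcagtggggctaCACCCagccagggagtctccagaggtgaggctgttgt
Col17a1: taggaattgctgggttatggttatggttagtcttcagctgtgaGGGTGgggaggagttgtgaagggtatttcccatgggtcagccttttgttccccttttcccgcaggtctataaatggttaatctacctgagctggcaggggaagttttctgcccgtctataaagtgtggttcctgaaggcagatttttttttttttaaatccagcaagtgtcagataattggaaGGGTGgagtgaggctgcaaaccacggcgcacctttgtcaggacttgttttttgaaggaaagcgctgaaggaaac
The *Lamb3* window held 4 such matches and the *Col17a1* window 2. CACCC on either strand was in 6 of the 10 windows and in 57.5% of all 32851 windows of this length in the table, so the share is close to the background. The longer element GGGTGTGGC was in 0 of the 10 windows and in 1.35% of all, and the AP-1 site TGANTCA was in 1, a window of *Itga3*, and in 7.81% of all. A match is a description of letters only.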

How the data were processed

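Column-extracted RNA of esophageal epithelium was amplified by in vitro transcription with biotin, per the labels' protocols. The authors deposited a table of 28853 probe sets by 6 arrays, whose log2 scale was read from the range of its values. Partek 6.4 is named in the submitters' processing notes, with no role. How signals were background-corrected, normalized and summarized is not stated and can compress differences of dim or bright genes. Depth does not apply to arrays, and 3 arrays per group limit the precision.

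A single gene was named by 21789 probe sets, several by 1621 and none by 5443. Symbols were updated by Entrez identifier (21698 matched, 91 kept). Each of 19938 genes was represented by its brightest probe set (mean of 6 arrays). Groups were compared with limma 3.58.1 in R 4.3.3 (two-sided, genotype only, 7.58 degrees of freedom after moderation) and Benjamini-Hochberg adjustment over all genes; the code was tested on simulated data. Gene lists are described by counts and medians. From each related list the text names genes past the threshold, or the 2 with the smallest p. The members and lists were chosen with earlier results of these data known. Alternatives covered normalization, dim genes, probe sets, covariates, the variance model and each array left out. Over all genes, same-numbered arrays did not deviate together (correlations of -0.17, 0.090 and -0.10), and the main fit used no pairing. With 3 arrays per group these values cannot exclude a pairing. The fit with the replicate number as a block is given below. Python 3.11.15 and matplotlib 3.10.9 drew the plots.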

Additional observations from a re-analysis of the deposited data

How the results depend on the processing

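Over 20 alternatives, *Lama3*, *Lamb3*, *Itgb4* and *Col17a1* stayed lower on arrays labelled mutant in all, with ranges of -0.56 to -0.42, -0.68 to -0.41, -0.66 to -0.26 and -0.79 to -0.28. Array weights gave control 3 a weight of 2.69 and the other arrays 0.62 to 1.01. They took 2 of the 10 genes past the threshold, *Lama3* and *Lamb3* (limma adjusted p = 0.0495 and 0.0448). More of all genes passed in this setting too, by the count given below. Over all alternatives the limma adjusted p-values of these genes ran from 0.0495 to 0.910 and from 0.0448 to 0.719. With the fibroblast and smooth muscle score as a covariate, 6 of the 10 genes were lower, 2 of them at an unadjusted p under 0.05, the median of the 10 was -0.15, and *Dst*, *Cd151*, *Plec* and *Itgb1* reversed to 0.077, 0.017, 0.15 and 0.092. Without moderation of the variances, 4 genes were lower at an unadjusted p under 0.05. *Itga6* turned to 0.016 with median centring, 0.081 with the basal keratin and *Trp63* score as a covariate, 0.089 with array weights, 0.091 without control 1 and 0.17 without mutant 3, with a range of -0.19 to 0.17 over left-out arrays. *Itga3* turned to 0.027 with that basal score, 0.069 with array weights, 0.0068 without control 2 and 0.022 without mutant 3, with a range of -0.24 to 0.022 over left-out arrays. With 1 array left out, 8 to 10 of the genes were lower, 4 to 8 at an unadjusted p under 0.05, and their median was -0.46 to -0.36. With the replicate number as a block, all 10 genes kept their direction and 8 were lower at an unadjusted p under 0.05. No share of all genes at an unadjusted p is given for the alternatives, so these counts stand without a background. Of the 5 called genes of the related lists, *Fn1* passed with this block (limma adjusted p = 0.0218), while *Timp2*, *Evpl*, *Ddr2* and *Cd82* did not (0.0608, 0.0669, 0.108 and 0.108).

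Of all 19938 genes, 207 (1.04%) passed the threshold as deposited. The count was 81 with the replicate block, 3 with the fibroblast and smooth muscle score and 312 with the skeletal muscle score. It was 7 without moderation and 370 with array weights. In the 4 females alone the count was 83, and with 1 array left out it was 44 to 193. Leaving out control 3 gave 44, control 2 gave 106, mutants 1 and 2 gave 93 each, and mutant 3 gave 102. The causes of these changes in the count were not tested.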

Other observations

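Some adhesion genes had a higher mean on arrays labelled mutant, named here after their values were seen. *Actn1* and *Actn4* encode the non-muscle α-actinins that crosslink actin at adhesion sites. *Actn1* read 6.48, 6.43 and 6.41 on arrays labelled control and 7.30, 6.83 and 6.80 on those labelled mutant, a difference of 0.54 ± 0.15 (SE), while *Actn4* read 11.21, 11.16 and 11.20 against 10.83, 10.75 and 10.96, a difference of -0.34 ± 0.10. Both had separate groups, in opposite directions, and neither passed in limma. Among integrin chains, *Itgav* read 8.82, 8.90 and 8.88 against 9.11, 9.01 and 9.13, a difference of 0.22 ± 0.090, and did not pass either.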
